A study of Homo sapiens with 12 samples.

Results

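The genes described here encode the protein subunits of the mitochondrial respiratory chain and ATP synthase. They were chosen by symbol: NDUFA, NDUFB, NDUFC, NDUFS and NDUFV genes with a number, SDHA to SDHD, the 9 named subunits of complex III, the COX4I to COX8 families, the ATP5F1, ATP5M and ATP5P genes, and the 13 mRNAs of the mitochondrial genome. The choice was made with earlier results of these data known. The rule found 99 genes among the 62803 identifiers of the series. Of these, 86 are nuclear genes, with 36 in complex I, 4 in complex II, 9 in complex III, 18 in complex IV and 19 in complex V. The other 13 are mitochondrial genes, with 7 in complex I, 1 in complex III, 3 in complex IV and 2 in complex V. The 106 pseudogenes with such symbols were left out. NDUFA4 is counted in complex IV, since RefSeq now names it COXFA4.

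All libraries came from RT4, an established human bladder cancer cell line, in 2 experiments of 6 libraries each. In the overexpression experiment, 3 libraries came from cells given a Flag-tagged ITGB4 plasmid and 3 from cells given the empty vector, all grown in McCoy's 5A medium. In the resistance experiment, 3 libraries came from cisplatin-resistant RT4 cells, labelled as treated with cisplatin, and 3 from parental RT4 cells, labelled as treated with PBS, all grown in MEM. Resistance and cisplatin treatment thus fall on the same libraries and cannot be told apart. The labels give no dose, no time and no separate cultures, and if the replicates are technical, p-values describe technical spread only. The labels of plasmid and vector libraries 2 and 3 name ITGB5 and ITGB6, while their titles name ITGB4. ITGB4 itself averaged 1427 ± 53.6 CPM (counts scaled to library size with TMM factors) in ITGB4 plasmid libraries and 869 ± 10.97 CPM in empty vector libraries (SD, n = 3 each), a log2 fold change of 0.71 (SE 0.026). The columns taken as parental are headed NC with numbers, which no parental title holds, so their place in this group is an inference. No name ties them to a labelled replicate number, so they are called a, b and c.

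The respiratory chain passes electrons from NADH through complex I, or from succinate through complex II, to ubiquinone, then through complex III and cytochrome c to complex IV, which reduces oxygen. Complexes I, III and IV pump protons across the inner membrane, and complex V, the ATP synthase, uses the gradient to make ATP. Complex II is encoded in the nucleus alone, while the other complexes need subunits from both genomes, with the mitochondrial genes supplying core membrane subunits.

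Each library held 22701466 to 33352045 counts in the overexpression experiment and 31824582 to 38199946 in the resistance experiment. Summed urothelial markers lay at 7218 to 7701 CPM in ITGB4 plasmid, 5584 to 5778 CPM in empty vector, 8383 to 9625 CPM in cisplatin-resistant and 8289 to 8366 CPM in parental libraries, and KRT20 was at 0 throughout. Single urothelial markers went both ways. Of 14 tested, 8 were called higher and 4 lower with the plasmid, against 36.5% and 35.7% of all genes. In resistant cells 5 were called higher and 7 lower, against 26.8% and 27.7% of all genes. Summed leukocyte markers, nearly all of it ITGAM, lay at 13.8 to 14.9 CPM in ITGB4 plasmid and 21.7 to 22.6 CPM in empty vector libraries, and at 14.9 to 15.9 CPM in cisplatin-resistant and 20.3 to 23.7 CPM in parental libraries. The groups did not overlap in either experiment, and ITGAM was called lower in both. Summed endothelial markers, mostly VWF, were 1.73 to 1.85 CPM in ITGB4 plasmid and 2.31 to 2.36 CPM in empty vector libraries, which did not overlap, and VWF was called lower with the plasmid. They were 0.709 to 2.56 CPM in cisplatin-resistant and 1.23 to 1.67 CPM in parental libraries, which did. Summed muscle markers were 1.23 to 2.47 CPM over all libraries, and their groups overlapped, although with the plasmid ACTG2 was called higher and TNNT2 lower. PTPRC, KDR and MYH11 were at or near 0. The fibroblast markers, mostly COL3A1 in the overexpression table and COL1A1 in the resistance table, summed to 24.6 to 26.2 CPM in ITGB4 plasmid and 48.3 to 52.3 CPM in empty vector libraries, with 4.48 to 5.86 CPM in cisplatin-resistant and 12.1 to 12.2 CPM in parental libraries. Only 2 fibroblast markers could be tested in each experiment, and they were called in opposite directions. Their log2 fold changes were 0.77 and -1.34 for the plasmid, and 2.68 and -1.32 for resistance. The part of these markers in the results below was not tested.

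The first comparison asked which subunit mRNAs differ between ITGB4 plasmid and empty vector cells. Subunit mRNAs of all 5 complexes were mostly lower with the ITGB4 plasmid. Of the 86 nuclear genes, 77 had enough counts to test, and 66 of them were lower and 6 higher (edgeR's quasi-likelihood test, adjusted p under 0.05), while 5 did not pass. Over all 16950 genes tested, 72.2% were called, 35.7% lower and 36.5% higher. The nuclear subunits had a median log2 fold change of -0.31, against 0.0017 over all genes. Most changes were modest, and 8 genes were lower and 2 higher by more than 1.5-fold. As a share of all counts, the nuclear subunits took 0.545 to 0.559% in ITGB4 plasmid libraries and 0.710 to 0.725% in empty vector libraries, so the groups did not overlap. CPM values of single subunits did not overlap between groups for 66 lower and 6 higher subunits, against 37.1% lower, 37.4% higher and 74.5% in either direction over all genes tested.

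**Figure D1:**
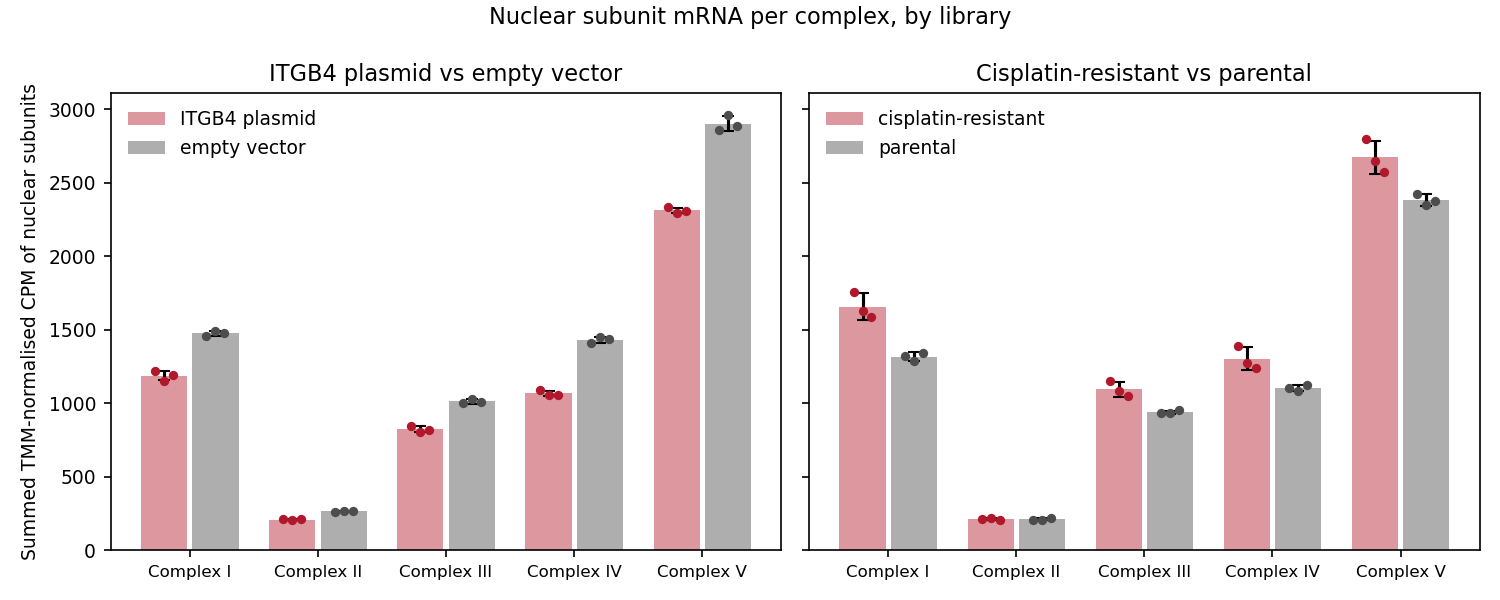
Summed TMM-normalised CPM of the nuclear subunits of each complex, with bars for the mean, error bars for the SD (n = 3 libraries) and points for libraries. In the left panel every complex is lower in ITGB4 plasmid libraries than in empty vector libraries, and in the right panel complexes I, III, IV and V are higher in cisplatin-resistant libraries than in parental libraries, while complex II overlaps.

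In complex I, the entry point for electrons from NADH, 28 of 35 tested nuclear subunits were lower with the ITGB4 plasmid and 4 higher, with a median log2 fold change of -0.27. NDUFA1, a small membrane subunit encoded on chromosome X (GRCh38, 119871487 to 119876662, plus strand), changed most among those lower. It stood at 27.7, 24.4 and 27.0 CPM in ITGB4 plasmid libraries, against 48.3, 47.2 and 47.4 CPM in empty vector libraries. The groups lay far apart, and the log2 fold change was -0.85 (SE 0.046, edgeR adjusted p = 3.26e-11). NDUFA1 shares 44.5% of its exon bases with RNF113A, and the part of this overlap in its counts was not tested. NDUFA2, an accessory subunit of the matrix arm, had 12.02 ± 0.58 CPM in ITGB4 plasmid libraries and 20.04 ± 0.85 CPM in empty vector libraries, a log2 fold change of -0.73 (SE 0.062, edgeR adjusted p = 1.25e-08). Among the 7 nuclear subunits of the catalytic core, which carry the flavin and the iron-sulfur clusters, 5 were lower and 1 higher, with a median of -0.33. NDUFS1, the largest subunit of the electron input module, averaged 113 ± 2.52 CPM in ITGB4 plasmid and 142 ± 2.95 CPM in empty vector libraries, a log2 fold change of -0.33. NDUFA10, an accessory subunit, averaged 108 ± 2.82 CPM in ITGB4 plasmid and 142 ± 3.06 CPM in empty vector libraries, a log2 fold change of -0.40.

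Among the complex I subunits that were higher with the plasmid, NDUFA3, NDUFA7 and NDUFA13 were rare in these tables. NDUFA3 had 0.583, 1.33 and 1.05 CPM in ITGB4 plasmid libraries, against 0.456, 0.418 and 0.503 CPM in empty vector libraries, a log2 fold change of 1.12 with an SE of 0.29. NDUFA7 averaged 1.19 ± 0.064 CPM in ITGB4 plasmid and 0.709 ± 0.15 CPM in empty vector libraries, and NDUFA13 averaged 2.69 ± 0.063 CPM in ITGB4 plasmid and 2.01 ± 0.10 CPM in empty vector libraries.

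In complex II, which is also the succinate dehydrogenase of the tricarboxylic acid cycle, 3 subunits were lower with the ITGB4 plasmid and 1 was higher. SDHD, a membrane anchor, had 52.8, 54.4 and 59.0 CPM in ITGB4 plasmid libraries and 84.4, 87.6 and 82.8 CPM in empty vector libraries, with a log2 fold change of -0.61 (SE 0.040, edgeR adjusted p = 5.64e-10). The other anchor, SDHC, and the iron-sulfur subunit, SDHB, were also lower, with log2 fold changes of -0.30 and -0.27. SDHA, the flavoprotein that oxidises succinate, was higher, at 14.8, 13.2 and 13.7 CPM in ITGB4 plasmid libraries and 9.09, 9.05 and 10.4 CPM in empty vector libraries. The log2 fold change of SDHA was 0.54 (SE 0.076, edgeR adjusted p = 7.12e-06), and its groups did not overlap. Per kilobase of exon, SDHA had 1.66 CPM in ITGB4 plasmid and 1.13 CPM in empty vector libraries. SDHC, the next lowest of the complex, had 6.66 and 8.17 CPM per kb. Why SDHA was this low was not tested.

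In complex III, which hands electrons to cytochrome c, 8 of 9 subunits were lower and 1 was higher with the ITGB4 plasmid. UQCRC2, a core protein facing the matrix, had 139, 137 and 139 CPM in ITGB4 plasmid libraries and 189, 188 and 186 CPM in empty vector libraries, a log2 fold change of -0.44 (SE 0.026, edgeR adjusted p = 1.47e-10). UQCRQ and UQCRB followed with log2 fold changes of -0.41 and -0.38. CYC1 and UQCRFS1, which carry the haem and the iron-sulfur cluster of the catalytic path, had log2 fold changes of -0.23 and -0.26. UQCR11, a small peripheral subunit, was the exception, at 9.59 ± 0.73 CPM in ITGB4 plasmid and 7.36 ± 0.50 CPM in empty vector libraries, a log2 fold change of 0.37.

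Complex IV, cytochrome c oxidase, had the most negative median of the 5 complexes, at -0.48, and all 12 of its tested nuclear subunits were lower. COX6A1, the ubiquitous form of a dimer-interface subunit, had 43.9, 40.2 and 41.1 CPM in ITGB4 plasmid libraries and 64.1, 64.1 and 63.0 CPM in empty vector libraries, a log2 fold change of -0.61 (SE 0.038, edgeR adjusted p = 2.27e-10). COX7A2L, also known as a supercomplex assembly factor, averaged 70.1 ± 3.61 and 105 ± 2.35 CPM in ITGB4 plasmid and empty vector libraries. NDUFA4 had 89.8, 91.0 and 88.9 CPM in ITGB4 plasmid libraries, against 130, 131 and 129 CPM in empty vector libraries. COX4I1, which starts assembly around the first mitochondrial subunit, averaged 198 ± 11.7 CPM in ITGB4 plasmid and 267 ± 1.29 CPM in empty vector libraries, a log2 fold change of -0.43. At the other end of the range, COX5A had a log2 fold change of -0.11 (SE 0.030). The alternative isoforms COX4I2, COX6A2, COX6B2, COX7A1, COX7B2 and COX8C had too few counts to test in either experiment.

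In complex V, 15 of 17 tested subunits were lower and none passed the test as higher. ATP5PB, a subunit of the peripheral stalk that holds the rotor's housing still, had 142, 145 and 141 CPM in ITGB4 plasmid libraries and 213, 215 and 206 CPM in empty vector libraries. Its log2 fold change was -0.57 (SE 0.028, edgeR adjusted p = 1.22e-11). ATP5MJ, a small membrane subunit, averaged 35.3 ± 0.69 CPM in ITGB4 plasmid and 55.4 ± 2.66 CPM in empty vector libraries, a log2 fold change of -0.65. The 3 genes for the rotor's c subunit, ATP5MC1, ATP5MC2 and ATP5MC3, were all lower, with a median of -0.49. Per kilobase of exon, the catalytic subunit ATP5F1B was the most abundant nuclear member, at 359 CPM per kb in ITGB4 plasmid and 456 CPM per kb in empty vector libraries. ATP5PD and ATP5F1D did not pass, with log2 fold changes of -0.06 and 0.02.

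**Figure D2:**
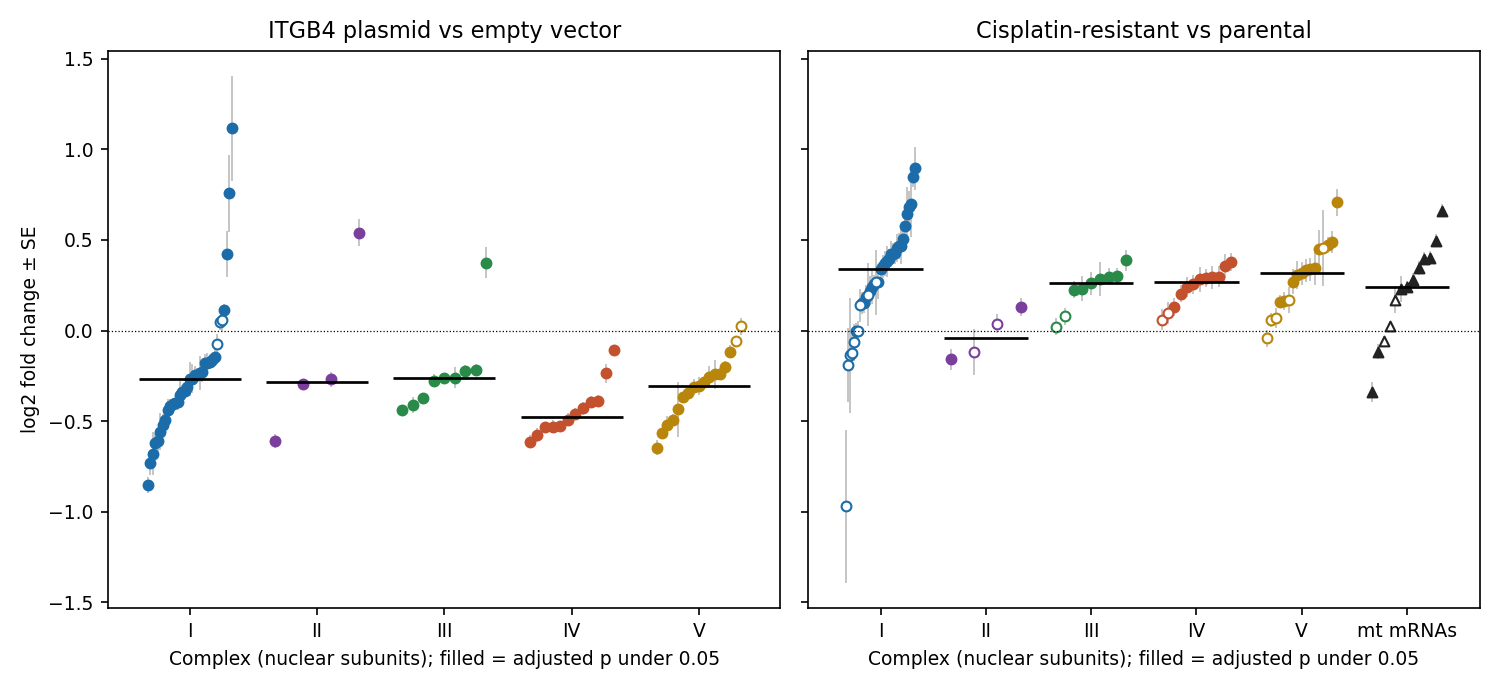
Log2 fold change of each tested nuclear subunit, by complex, with its SE, and of the mitochondrial mRNAs (triangles) in the right panel; filled symbols passed an adjusted p of 0.05 and black lines are medians. The medians run from -0.48 to -0.26 for ITGB4 plasmid against empty vector, and for cisplatin-resistant against parental cells they lie above 0 for all but complex II.

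The second comparison asked which subunit mRNAs differ between cisplatin-resistant and parental RT4 cells, and here most that changed were higher. Of the 77 tested nuclear subunits, 55 were higher and 1 was lower, and 21 did not pass. Over all 16875 genes tested, 54.5% were called, 26.8% higher and 27.7% lower. The median log2 fold change was 0.27, against 0.018 over all genes, and 6 subunits were higher by more than 1.5-fold. The nuclear subunits took 0.708 to 0.768% of all counts in cisplatin-resistant libraries, against 0.555 to 0.567% in parental libraries. The gap depends on the scale. Between group means it was 30.6% in this share and 16.6% in summed TMM-normalised CPM. Cisplatin-resistant library 1 was the highest of its group for 4 of the 5 complexes in summed CPM. Without it, 48 nuclear subunits were higher and 2 lower, with a median of 0.24. CPM values did not overlap between groups for 57 higher and 1 lower subunit, against 30.3% higher, 30.5% lower and 60.8% in either direction over all genes tested.

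Complex I held 25 higher subunits among 35 tested and none that passed as lower, with a median of 0.34. NDUFV1, on chromosome 11 (67605653 to 67612554, plus strand), binds NADH and the flavin. It had 121, 109 and 106 CPM in cisplatin-resistant libraries, against 59.2, 61.4 and 65.7 CPM in parental libraries. The groups were far apart, and the log2 fold change was 0.85 (SE 0.058, edgeR adjusted p = 1.45e-09). NDUFC2, a membrane-arm subunit, had 14.5, 12.2 and 11.2 CPM in cisplatin-resistant and 7.37, 6.33 and 6.65 CPM in parental libraries, a log2 fold change of 0.90 (SE 0.12, edgeR adjusted p = 5.73e-06). NDUFA11, another membrane subunit, averaged 6.48 ± 1.52 CPM in cisplatin-resistant and 3.98 ± 0.78 CPM in parental libraries, a log2 fold change of 0.70. Of the 7 core subunits, 5 were higher.

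Complex II showed little change in the resistant cells. SDHD averaged 82.8 ± 3.03 CPM in cisplatin-resistant and 75.7 ± 0.90 CPM in parental libraries, a log2 fold change of 0.13 (SE 0.049, edgeR adjusted p = 0.0314). With 1 library left out, SDHD passed in 2 of 6 fits. SDHB had 44.7, 43.9 and 43.6 CPM in cisplatin-resistant libraries, against 48.8, 47.3 and 51.5 CPM in parental libraries. Its log2 fold change was -0.16 (SE 0.058, edgeR adjusted p = 0.0272), and it was the only nuclear subunit called lower. With 1 library left out, SDHB passed in 2 of 6 fits, with edgeR adjusted p from 0.0242 to 0.134, and with library sizes alone as the scale its log2 fold change was 0.0052. SDHA and SDHC did not pass, with log2 fold changes of -0.12 and 0.04.

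In complex III, 7 of 9 subunits were higher. CYC1, cytochrome c1, had 182, 164 and 148 CPM in cisplatin-resistant libraries and 126, 124 and 126 CPM in parental libraries, a log2 fold change of 0.39 (SE 0.059, edgeR adjusted p = 2.64e-05). UQCRC2 and UQCRC1, the 2 core proteins, had log2 fold changes of 0.30 each. UQCRFS1 and UQCRH did not pass, at 0.02 and 0.08. In complex IV, 10 of 12 tested subunits were higher and COX7A2 and COX6C did not pass. COX7A2L had 119, 121 and 111 CPM in cisplatin-resistant libraries, against 92.8, 89.9 and 88.1 CPM in parental libraries, a log2 fold change of 0.38 (SE 0.049, edgeR adjusted p = 4.27e-06). COX4I1 averaged 216 ± 15.3 and 177 ± 6.45 CPM in cisplatin-resistant and parental libraries.

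In complex V, 12 of 17 subunits were higher, among them all 4 of the peripheral stalk and all 3 c-subunit genes. ATP5MC1 had the largest change, at 0.71 (SE 0.075, edgeR adjusted p = 3.66e-07). ATP5PB was also higher, with a log2 fold change of 0.47. The catalytic subunits differed less. ATP5F1A averaged 552 ± 11.2 CPM in cisplatin-resistant and 495 ± 7.02 CPM in parental libraries, a log2 fold change of 0.16, and ATP5F1B averaged 1002 ± 35.9 and 963 ± 27.2 CPM, a log2 fold change of 0.06 that did not pass.

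The 13 mitochondrial mRNAs were listed at 0 in all 6 libraries of the overexpression table, as were all 37 mitochondrial genes, so they could be compared only between resistant and parental cells. There, 8 were higher, 2 lower and 3 did not pass, with a median log2 fold change of 0.24. Together they took 1.60 to 1.68% of all counts in cisplatin-resistant libraries and 1.31 to 1.33% in parental libraries. For the 13 mRNAs, the group means differed by 24.6% in this share and by 11.2% in summed TMM-normalised CPM. Their summed CPM per unit of nuclear subunit CPM was 2.24 ± 0.11 in cisplatin-resistant and 2.35 ± 0.031 in parental libraries (SD, n = 3 each), so the groups overlapped in this ratio.

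MT-CO3, a core membrane subunit of complex IV, changed most. It had 1357, 1267 and 1274 CPM in cisplatin-resistant libraries, against 821, 818 and 826 CPM in parental libraries, a log2 fold change of 0.66 (SE 0.035, edgeR adjusted p = 4.53e-11). MT-CO1, the catalytic subunit of the same complex, had 4971, 4922 and 5113 CPM in cisplatin-resistant libraries and 4853, 4935 and 4965 CPM in parental libraries. The groups overlapped, and its log2 fold change of 0.02 (SE 0.027) did not pass. MT-CO2, which receives electrons from cytochrome c, lay between them at 0.24. Per kilobase, MT-CO1 was the most abundant member, at 3244 CPM per kb in cisplatin-resistant and 3189 CPM per kb in parental libraries.

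The complex I subunits of the mitochondrial genome split. MT-ND2 had 923, 883 and 908 CPM in cisplatin-resistant libraries and 614, 651 and 658 CPM in parental libraries, a log2 fold change of 0.50 (SE 0.037, edgeR adjusted p = 3.89e-09). MT-ND1 and MT-ND6 were also higher, with log2 fold changes of 0.35 and 0.28. MT-ND6 lies on the other strand from the remaining 12, and the strand setting of this table is not given in the sources used here. MT-ND4L was lower, at 190, 205 and 230 CPM in cisplatin-resistant libraries and 258, 270 and 264 CPM in parental libraries, a log2 fold change of -0.34 (SE 0.055, edgeR adjusted p = 5.38e-05). It passed in all 6 fits with 1 library left out. MT-ND5 was called lower at -0.12 (SE 0.040), but passed in only 2 of 6 such fits and was 0.05 when library sizes alone set the scale. MT-ND4 and MT-ND3 did not pass, at -0.06 and 0.17. In gene order, MT-ND4L, MT-ND4 and MT-ND5 follow each other, and these 3 were the mitochondrial mRNAs with log2 fold changes below 0. With library sizes alone as the scale, MT-ND4L alone stayed below 0 and MT-ND4 was 0.10.

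MT-CYB of complex III had a log2 fold change of 0.40 (SE 0.038), and MT-ATP6 of complex V had 0.40 (SE 0.036). MT-ATP8 had 0.23, at 29.2 ± 1.96 CPM in cisplatin-resistant and 24.9 ± 0.16 CPM in parental libraries. Both proteins of the ATP synthase are read from overlapping frames of a shared transcript. The overlap spans 46 bases at chrM:8527-8572 of GRCh38, plus strand, and is shown because a read from it belongs to both genes, with no capitals since no motif is marked:
MT-ATP8 and MT-ATP6 overlap: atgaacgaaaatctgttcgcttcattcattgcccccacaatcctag
The start codon of MT-ATP6 opens this stretch and the stop codon of MT-ATP8 closes it. MT-ND4L and MT-ND4 overlap by 7 bases in the same way.

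**Figure D3:**
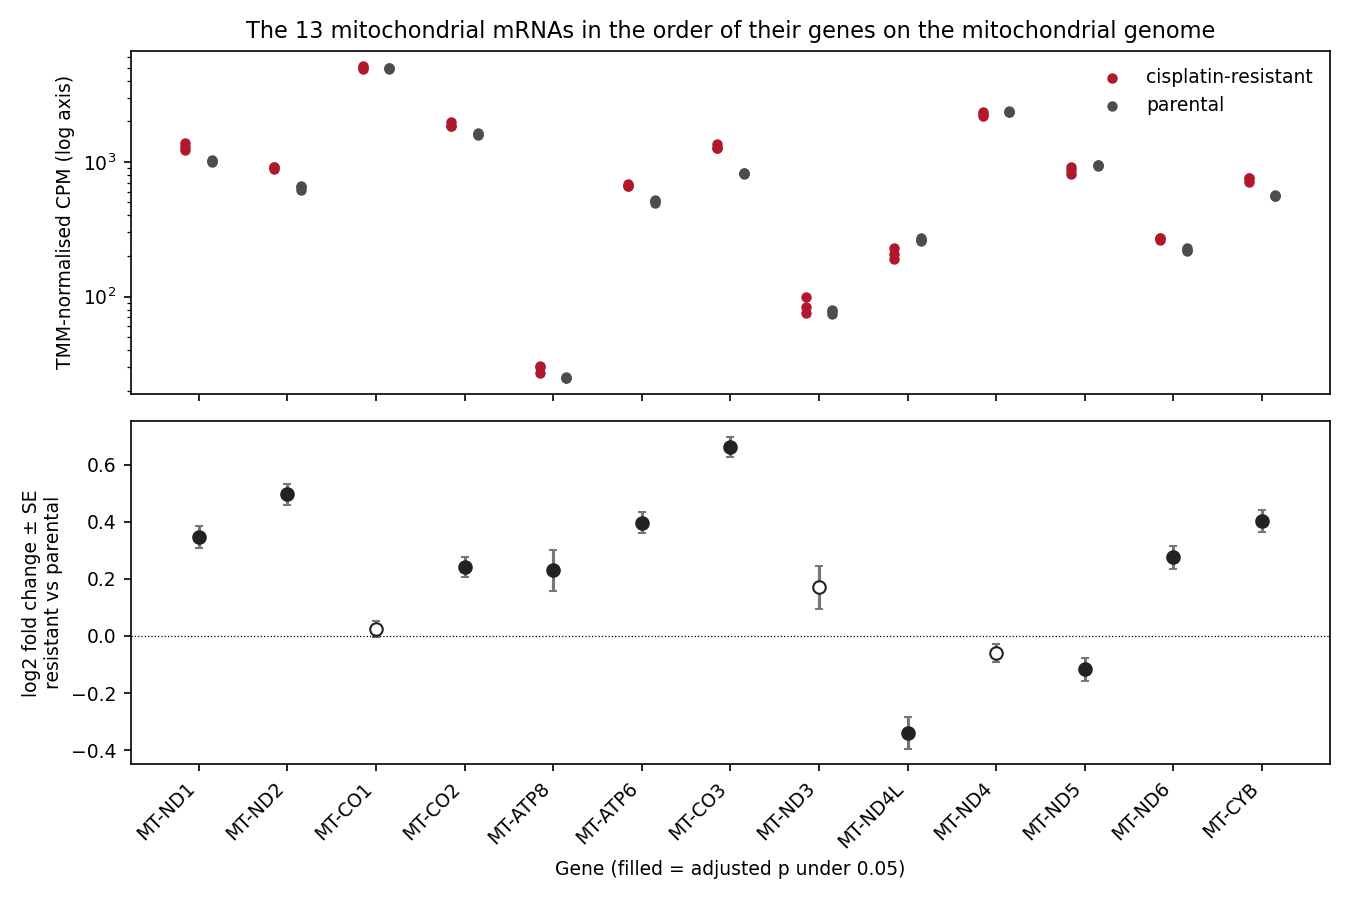
The 13 mitochondrial mRNAs in gene order: TMM-normalised CPM of each library on a log axis (upper panel) and log2 fold change with its SE, cisplatin-resistant against parental (lower panel; filled points passed an adjusted p of 0.05). MT-CO3 stands highest at 0.66 and the neighbours MT-ND4L, MT-ND4 and MT-ND5 lie below 0, where MT-ND4 and MT-ND5 turn positive with library sizes alone as the scale.

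The third comparison tested the difference between the fold changes of the experiments in a single fit over all 12 libraries. The fold change was more negative for the plasmid than for resistance in 67 of the 77 nuclear subunits and more positive in 3, and 7 did not pass (edgeR, adjusted p under 0.05). Of the 18516 genes in that fit, 61.8% were called, 31.6% in the negative and 30.2% in the positive direction. The median difference over the nuclear subunits was -0.60 on the log2 scale, against -0.047 over all genes. By complex, all 12 subunits of complex IV and all 17 of complex V were more negative for the plasmid, with 28 of 35 in complex I, 8 of 9 in complex III and 2 of 4 in complex II. No library serves in both experiments, but the media differ, and medium and experiment cannot be told apart.

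Counting calls in each experiment, 53 nuclear subunits passed in both, and 51 of these were lower with the plasmid and higher in resistant cells. NDUFA11, with log2 fold changes of -0.68 for the plasmid and 0.70 for resistance, differed most, by -1.41 (SE 0.25, edgeR adjusted p = 4.57e-05). NDUFB5, a membrane-arm subunit, had -0.56 and 0.68, and ATP5MC1 had -0.52 and 0.71. NDUFA5 had -0.61 and 0.51, and ATP5MC2 had -0.49 and 0.49. Only UQCR11 and SDHB had the same sign in both, UQCR11 higher with 0.37 and 0.28 and SDHB lower with -0.27 and -0.16, and the difference did not pass for either. The 3 subunits that were more positive for the plasmid were SDHA, NDUFA7 and NDUFA3, with differences of 0.64, 0.87 and 2.06.

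**Figure D4:**
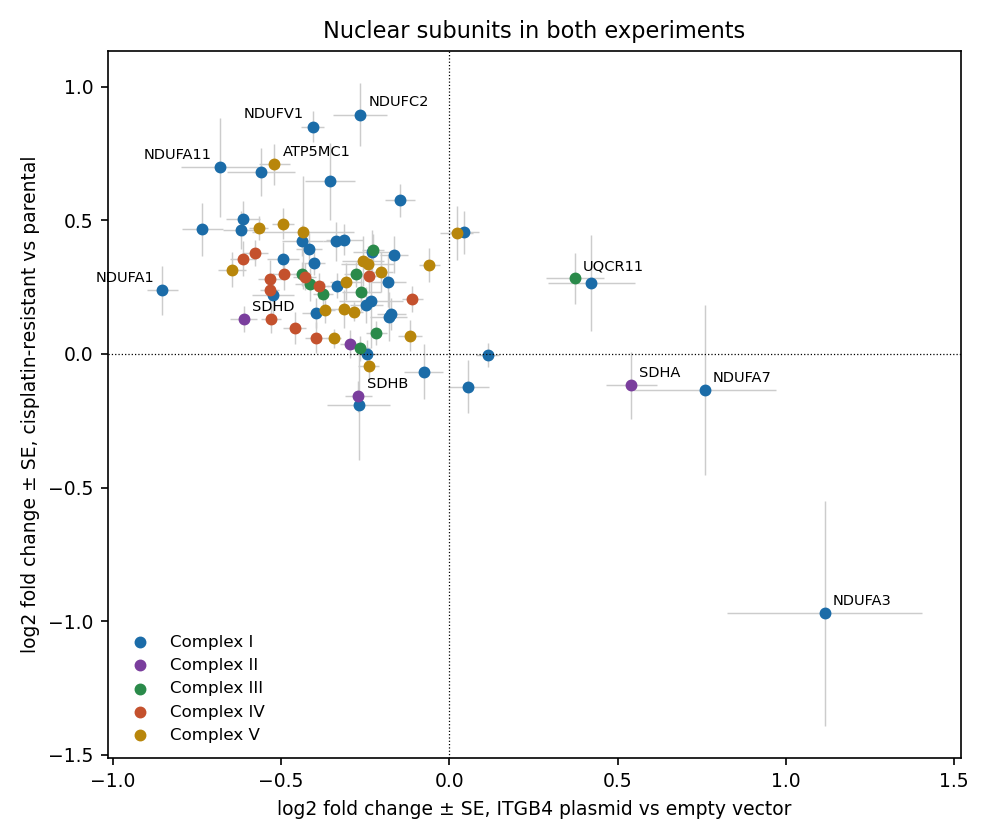
Log2 fold change with its SE of the 77 tested nuclear subunits, ITGB4 plasmid against empty vector on the x axis and cisplatin-resistant against parental on the y axis. Most points fall at the upper left, with NDUFA11 at -0.68 and 0.70, and NDUFA3 stands alone at the lower right with wide errors.

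The 9 nuclear members that were not tested, among them NDUFA6 and ATP5MGL beside the 6 isoforms of complex IV, had at most 5 counts in any library of the overexpression table and 8 in the resistance table. Exons shared with other genes covered at least 50% of the exon bases of ATP5ME (61.6%) and of ATP5MF-PTCD1 (93.8%). Tested subunits just under that limit were NDUFS7 (49.1%), NDUFB8 (48.5%), NDUFB11 (44.9%) and NDUFA1 (44.5%), and they stay in the counts below. Whether reads on shared bases were counted or left out was not tested. Without ATP5ME and ATP5MF-PTCD1, 65 nuclear subunits were lower and 6 higher with the plasmid, and 55 were higher and 1 lower in resistant cells. Many subunit genes are short, and length was compared as a background. Within 5 ranges of exon length, the other protein-coding genes had median log2 fold changes of -0.01 to 0.12 for the plasmid, against -0.44 to -0.25 for the subunits. For resistance, the medians were -0.11 to 0.17 for the other genes and 0.19 to 0.45 for the subunits. Shorter genes outside the chain also stood higher in resistant cells, so the gap varied with length. At 1000 to 2000 bases, the 20 subunits had a median of 0.21 and the other genes 0.17. Up to 1000 bases these were 0.30 and 0.15, and at 4000 to 8000 bases 0.45 and -0.02.

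The promoters of subunit genes are known to carry sites for NRF1, ETS factors such as GABP, and YY1. RefSeq promoter sequences (GRCh38.p14, 250 bases before to 50 after the start) matched 68 of the 86 nuclear members. The letters GCGCATGCG (NRF1) were found in 10 of them (14.7%), CCGGAAGT (ETS) in 10 (14.7%) and AAGATGGCG (YY1) in 8 (11.8%), on either strand. Over all 35116 promoters of that table the shares were 1.92%, 4.14% and 1.75%. Matches of different motifs did not overlap in any member, and 25 members held at least 1. The median log2 fold change for the plasmid was -0.39 in the 10 tested members with the NRF1 letters and -0.27 in the 53 without, and for resistance it was 0.36 with and 0.27 without. For the ETS letters it was -0.23 with and -0.31 without for the plasmid, and 0.26 with and 0.30 without for resistance. For the YY1 letters it was -0.27 with and -0.32 without for the plasmid, and 0.15 with and 0.29 without for resistance. The order of members with and without a motif thus differed between motifs, and no difference was tested. These values depend on the letters chosen. With 1 more base, C, the NRF1 letters were in 4 members and 1.24% of all promoters, with medians of -0.37 for the plasmid and 0.064 for resistance. With 1 more base, G, the YY1 letters were in 7 members and 1.2% of all promoters.

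The promoters of 3 members are shown, because together they hold the 3 motifs and their genes were lower with the plasmid and higher in resistant cells. Capitals mark the matches. SDHD (chr11:112086623-112086922, plus strand) holds the NRF1 letters on both strands of a palindrome and the ETS letters read on the opposite strand, COX5B (chr2:97645812-97646111, plus strand) holds the ETS letters at 2 places, and NDUFS7 (chr19:1383657-1383956, plus strand) holds the YY1 letters and the NRF1 letters read on the opposite strand:
SDHD: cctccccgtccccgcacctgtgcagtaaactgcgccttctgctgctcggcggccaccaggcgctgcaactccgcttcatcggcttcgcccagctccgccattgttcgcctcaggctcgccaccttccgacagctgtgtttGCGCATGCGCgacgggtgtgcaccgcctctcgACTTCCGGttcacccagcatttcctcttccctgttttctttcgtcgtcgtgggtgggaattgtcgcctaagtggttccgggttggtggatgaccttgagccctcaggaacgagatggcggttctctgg
COX5B: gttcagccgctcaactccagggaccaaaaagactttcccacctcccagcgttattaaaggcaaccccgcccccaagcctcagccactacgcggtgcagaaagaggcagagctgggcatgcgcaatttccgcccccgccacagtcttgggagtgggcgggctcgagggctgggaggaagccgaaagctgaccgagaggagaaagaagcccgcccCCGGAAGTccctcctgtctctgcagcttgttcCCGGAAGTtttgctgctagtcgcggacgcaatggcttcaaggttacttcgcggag
NDUFS7: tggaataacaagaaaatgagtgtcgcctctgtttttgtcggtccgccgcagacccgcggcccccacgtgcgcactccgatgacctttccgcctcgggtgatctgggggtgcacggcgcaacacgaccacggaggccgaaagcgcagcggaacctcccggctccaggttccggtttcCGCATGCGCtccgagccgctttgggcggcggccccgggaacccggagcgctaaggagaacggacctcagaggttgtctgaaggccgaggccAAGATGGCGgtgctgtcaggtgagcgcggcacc
COX5B had log2 fold changes of -0.53 for the plasmid and 0.28 for resistance, and NDUFS7 had -0.35 and 0.65. SDHD had -0.61 and 0.13, and its resistance call was lost in most fits that left out a library. A match describes these letters in the window and was not tested for binding.

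Genes that build and supply the chain were also counted. The counts in this and the following paragraphs stand beside high shares over all genes tested. With the plasmid, 36.5% of all genes were higher and 35.7% lower, 72.2% in either direction. In resistant cells, 26.8% were higher and 27.7% lower, 54.5% in either direction. No list was tested against these shares. Of 18 complex I assembly factors, 9 were lower and 5 higher with the plasmid, and 8 were higher and 2 lower in resistant cells. DMAC1, needed for the membrane arm, averaged 8.08 ± 0.34 CPM in ITGB4 plasmid and 15.8 ± 0.73 CPM in empty vector libraries, and 35.6 ± 2.60 CPM in cisplatin-resistant and 17.6 ± 2.70 CPM in parental libraries. NUBPL, which delivers iron-sulfur clusters to complex I, was lower with the plasmid at -0.91, and NDUFAF8 was higher in resistant cells at 1.23. Of the 4 complex II factors, 2 were higher in each experiment, led by SDHAF1 at 1.01 for the plasmid and SDHAF3 at 0.82 for resistance. Of the 9 complex III factors, 3 were lower and 2 higher with the plasmid, and 5 were higher in resistant cells. LYRM7, a chaperone of the Rieske protein, had log2 fold changes of -0.81 and 1.07.

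For complex IV, 15 of 23 tested assembly factors were lower and 5 higher with the plasmid, while 10 of 25 were higher and 2 lower in resistant cells. COX19, a copper-handling factor, was higher with the plasmid at 0.82, and HIGD2A was lower at -0.89. COA4 was higher in resistant cells at 0.60. Of the ATP synthase assembly genes and its inhibitor, 3 of 5 were lower with the plasmid and 2 of 7 higher in resistant cells, and the inhibitor ATP5IF1 had log2 fold changes of -0.33 and 0.26. Among 17 genes of electron carriers and coenzyme Q synthesis, 9 were lower and 4 higher with the plasmid, and 9 were higher and 2 lower in resistant cells. CYCS, cytochrome c itself, averaged 241 ± 4.91 CPM in ITGB4 plasmid and 315 ± 7.11 CPM in empty vector libraries, and 469 ± 19.2 CPM in cisplatin-resistant and 369 ± 7.08 CPM in parental libraries.

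**Figure D5:**
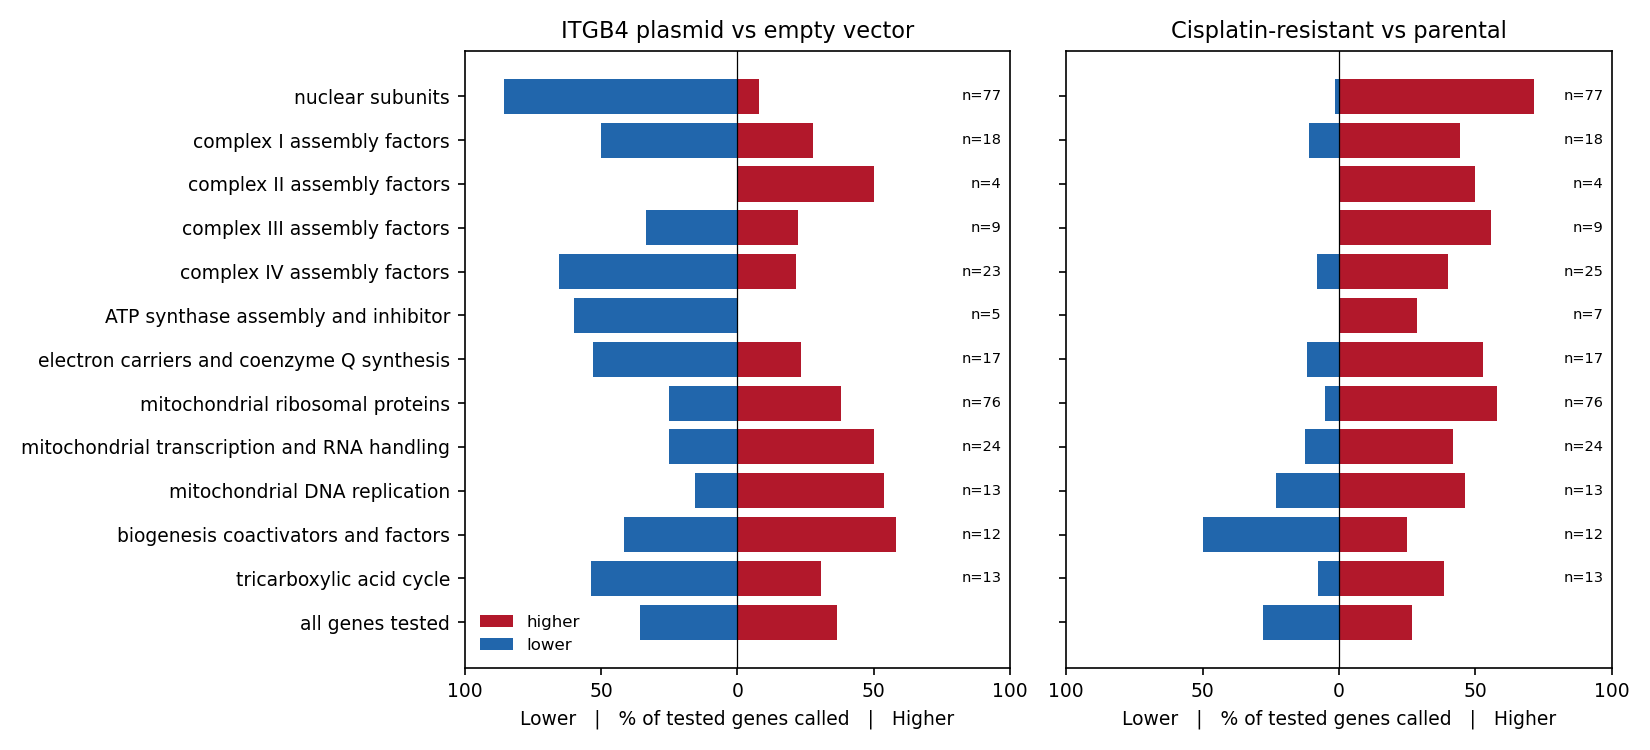
Share of the tested genes of each list called higher (red, right) or lower (blue, left) at an adjusted p of 0.05, for ITGB4 plasmid against empty vector and for cisplatin-resistant against parental cells, with all genes tested in the bottom row. The nuclear subunits have 66 of 77 genes lower in the left panel and 55 of 77 higher in the right panel, and the mitochondrial ribosomal proteins have 29 of 76 and 44 of 76 higher.

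Mitochondrial ribosomal proteins, which translate the 13 mitochondrial mRNAs, had no common direction with the plasmid: 29 of 76 tested were higher and 19 lower, with a median of 0.02 that was -0.02 with library sizes alone as the scale. In resistant cells, 44 were higher and 4 lower, with a median of 0.20. MRPL15 was lower with the plasmid at -0.60 and higher in resistant cells at 0.62, whereas MRPL17 was higher with the plasmid at 0.87. Of 24 genes of mitochondrial transcription and RNA handling, 12 were higher and 6 lower with the plasmid, and 10 were higher and 3 lower in resistant cells. PNPT1, the mitochondrial polynucleotide phosphorylase, averaged 390 ± 0.67 CPM in ITGB4 plasmid and 129 ± 1.94 CPM in empty vector libraries, a log2 fold change of 1.59 (SE 0.026, edgeR adjusted p = 4.41e-18). TFB2M, which opens mitochondrial promoters, was lower with the plasmid at -0.59 and higher in resistant cells at 0.89. POLRMT, the mitochondrial RNA polymerase, was higher with the plasmid at 0.55.

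Of 13 genes of mitochondrial DNA replication, 7 were higher and 2 lower with the plasmid, and 6 were higher and 3 lower in resistant cells. The helicase TWNK was higher in both, at 0.72 and 0.61. RRM2B, a p53-responsive subunit of ribonucleotide reductase, was higher in resistant cells, at 58.2 ± 3.05 CPM against 20.1 ± 1.47 CPM in parental cells, a log2 fold change of 1.53. Of 13 genes of the tricarboxylic acid cycle, 7 were lower and 4 higher with the plasmid, and 5 were higher and 1 lower in resistant cells. MDH2, mitochondrial malate dehydrogenase, was higher in resistant cells at 0.34.

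All 12 coactivators and nuclear factors of mitochondrial biogenesis passed with the plasmid, 7 higher and 5 lower. In resistant cells 3 were higher and 6 lower, or 5 and 3 with library sizes alone as the scale. PPARGC1A, which encodes the coactivator PGC-1 alpha, had the largest change. It had 0.987, 1.05 and 1.34 CPM in ITGB4 plasmid libraries, against 6.20, 5.85 and 5.36 CPM in empty vector libraries, a log2 fold change of -2.33 (SE 0.14, edgeR adjusted p = 1.39e-10). In the other experiment it had 1.17, 1.79 and 1.40 CPM in cisplatin-resistant libraries and 0.529, 0.844 and 0.393 CPM in parental libraries, a log2 fold change of 1.31 (SE 0.34, edgeR adjusted p = 0.00367). The groups did not overlap in either experiment, though the counts were low. Its relative PPRC1 was higher with the plasmid at 0.61, and PPARD was higher there at 0.75 and lower in resistant cells at -0.40. The factors whose motifs were searched above, NRF1, GABPA and YY1, had log2 fold changes of 0.21, -0.40 and 0.11 for the plasmid and -0.17, 0.05 and -0.13 for resistance, where NRF1 and GABPA did not pass.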

How the data were processed

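RNA-seq of RT4 cells was deposited by the authors as 2 tables of raw counts per gene, 1 per experiment. Per the file headers, the overexpression table was counted with featureCounts 2.0.1 over exons of the Ensembl 107 annotation, as read pairs and with no strand option. For the resistance table, the sources used here do not name a counter, an annotation or a strand option. The submitters' processing notes name hg38. Depth is given in the report, and counts limit low genes most.

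Groups came from sample titles. The parental columns are headed NC with numbers, and were taken as the parental group because the other columns match the resistant titles; this is an inference.

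Genes were filtered with filterByExpr, scaled with TMM and tested with edgeR 4.0.16 (quasi-likelihood test, R 4.3.3). P-values were adjusted by Benjamini-Hochberg over all genes tested, and calls used an adjusted p under 0.05. CPM values are TMM-normalised, and log2 fold changes are edgeR's. The difference between experiments was the interaction contrast over 12 libraries. Gene positions and exon lengths came from GENCODE 29, promoters from RefSeq (GRCh38.p14). Steps were tested on simulated data. Members and gene lists were chosen with earlier results of these data known, so no list is independent evidence. Of the lists, FASTKD4 was not matched to an identifier. Named genes are, per comparison and complex, up to 3 called members with the largest change (mean of at least 1 CPM in a group) and the 2 with the highest CPM; all 13 mitochondrial mRNAs; the isoforms of complex IV; up to 3 called genes per list by p; and up to 5 members called in both experiments with the same and with opposite signs. Other genes, and genes the rule named in 1 experiment alone but given for both, were named after their values were seen. Some single genes are not reported here. Alternatives were RLE factors, library sizes alone, scaling to nuclear counts alone, other count filters, DESeq2 1.42.0, limma-voom 3.58.1, a test against a 1.2-fold change, a replicate block and leaving out each library.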

Additional observations from a re-analysis of the deposited data

How the results depend on the processing

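The directions of the counts and medians of nuclear subunits held under all alternatives run. Against a 1.2-fold change, 3 nuclear subunits were higher and 35 lower with the plasmid, 21 were higher and 0 lower in resistant cells, and 5 mitochondrial mRNAs were higher and 0 lower. With library sizes alone, the median over all genes was -0.038, 0.18 and -0.22 for plasmid, resistance and their difference. The medians of nuclear subunits were then -0.35, 0.43 and -0.78, and that of the mitochondrial mRNAs 0.40; relative to all genes they were -0.31, 0.25, -0.56 and 0.22, as with TMM. In resistant cells this scale gave 69 nuclear subunits higher and 0 lower, and 11 mitochondrial mRNAs higher and 1 lower. It turned SDHB to 0.0052, MT-ND5 to 0.048, MT-ND4 to 0.10 (edgeR adjusted p = 7.77e-03) and the difference for UQCR11 to -0.11. Leaving out 1 library gave medians of -0.33 to -0.29 for the plasmid, 0.24 to 0.30 for resistance, 0.22 to 0.28 for mitochondrial mRNAs and -0.62 to -0.54 for the difference. Lower calls in resistant cells then ranged from 0 to 2 nuclear subunits and from 1 to 3 mitochondrial mRNAs. Uncalled resistance values changed sign, with SDHC ranging from -0.0104 to 0.0759 and COX7A2 from -0.0127 to 0.103. The cause was not tested. With the replicate block, the plasmid comparison had 66 subunits lower and 6 higher (median -0.31). In their deviations from group means, same-numbered libraries correlated at -0.017, -0.026 and 9e-03 over 14019 genes. Other pairs lay between -0.044 and 0.06. With 3 libraries per group, this cannot show whether same-numbered libraries were made together. No paired analysis was possible for resistance because the numbers in the parental column headers could not be tied to the labelled parental replicates. Subunits near 1 CPM, such as NDUFA3 and NDUFA7, rest on few counts, and why their counts are low was not tested.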

Other observations

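Nuclear copies of mitochondrial genes share sequence with the mitochondrial genome, so their reads and mitochondrial reads can be hard to place. In the overexpression table, where all mitochondrial genes are at 0, 7 such copies could be tested and 6 were lower with the plasmid. MTND2P28 had 53.1, 51.9 and 51.1 CPM in ITGB4 plasmid libraries, against 123, 118 and 115 CPM in empty vector libraries, a log2 fold change of -1.19 (SE 0.034, edgeR adjusted p = 8.26e-15). MTCO1P12 had -0.71 and MTND4P12 -1.25. MTATP6P1 had 147, 125 and 204 CPM in ITGB4 plasmid and 446, 332 and 326 CPM in empty vector libraries, a log2 fold change of -1.20. Between resistant and parental cells, 8 copies were tested and MTATP6P1 alone passed, at 111 ± 4.20 CPM in cisplatin-resistant and 84.5 ± 1.42 CPM in parental libraries, a log2 fold change of 0.40.

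Relatives of the subunits outside the rule were also measured. NDUFA4L2, a paralog of NDUFA4 known to be induced by hypoxia, had a log2 fold change of -1.46 for the plasmid and 1.04 for resistance, at 0.371 ± 0.028 CPM in ITGB4 plasmid, 1.04 ± 0.18 CPM in empty vector, 1.90 ± 0.14 CPM in cisplatin-resistant and 0.921 ± 0.27 CPM in parental libraries. NDUFAB1, the acyl carrier subunit of complex I, had -0.26 and 0.30.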
